A study of Caenorhabditis elegans with 4 samples.

Results

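The regions described here are the 603 sites on chromosome V at which the nuclear hormone receptor NHR-76, tagged with green fluorescent protein (GFP), was mapped in worms of the L3 larval stage. They are all lines of the authors' combined peak list that lie on chromosome V, with no further filter, and make up 22.2% of the 2714 regions of that list. The data come from chromatin immunoprecipitation and sequencing (ChIP-seq), in which DNA cross-linked to a protein is recovered with an antibody, here against GFP. Of the 4 libraries, 2 were ChIP and 2 were input chromatin, which is the sonicated DNA before precipitation. All came from Caenorhabditis elegans hermaphrodites of the strain OP203, grown at 20 °C, which carries the unc-119(ed3) mutation and the integrated transgene wgIs203 with nhr-76 tagged by TY1, EGFP and FLAG and an unc-119 rescue. The transgene was introduced by bombardment, and the genotype lists no mutation of the endogenous nhr-76 gene. No strain without the transgene was analysed here, and whole worms were used, so the tissue in which a site was bound is not resolved.

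Nuclear hormone receptors are transcription factors that bind DNA through zinc fingers, and many of them change the activity of nearby genes when a small lipophilic ligand binds. C. elegans has a greatly expanded family of them, and NHR-76 has been linked in this species to the control of body fat by serotonin signalling. Chromosome V is known for its large clusters of chemoreceptor genes and of nuclear hormone receptor genes. In worm autosomes the central part recombines little and holds many conserved genes, while the ends recombine more and hold more repeats and fast-evolving gene families.

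By the RefSeq gene table (assembly WBcel235), chromosome V held 176 of 283 nuclear genes named nhr (62.2%) and 4995 of 19971 protein-coding genes (25.01%), while nhr-76 itself lies on chromosome IV. The chromosome carried 120.7 combined regions per 1000 protein-coding genes, against 136.1 on chromosome II, 163.1 on chromosome IV, 183.2 on chromosome III and 194.1 on the X chromosome. Chromosome I, with few combined regions, had 32.3. Per Mb the chromosomes were closer, with 28.8 regions on V, 29.9 on X, 30.6 on IV, 30.7 on II and 35.1 on III. Chromosome I had 6.18 per Mb. The peak lists of the ChIP libraries taken singly were not sparse there. Replicate 1 had 3286 peaks on chromosome I and 3275 on chromosome II, and replicate 2 had 3842 and 3951. The combined list had 93 regions on chromosome I and 469 on chromosome II, and the cause of this was not tested. The peak files use another build, WormBase WS220, so regions were not assigned to genes and are named by WS220 position.

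The members differed widely in strength. The authors' q value, a false discovery measure that is smaller for stronger regions, ran from 1.44e-73 to 0.009997 with a median of 0.00144 and quartiles of 8.75e-05 and 0.00512. There were 3 members with q under 1e-20, 31 (5.14%) with q under 1e-10, 110 (18.2%) with q under 1e-05 and 274 (45.4%) with q under 0.001. On the other chromosomes 4.64% of regions had q under 1e-10 and 42.9% had q under 0.001. Across all nuclear chromosomes 17.4% of regions had q under 1e-05, and the share on chromosome V did not pass a test against the 17.1% of the other chromosomes (Fisher's exact test, adjusted p = 0.604 over 6 comparisons, difference of 1.14 percentage points). All tests of shares here are two-sided.

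The strongest member stood far apart from the rest. It spanned 635 bp from 19212213 to 19212847, near the right end of the chromosome, with q = 1.44e-73. Replicate 1 had its first-ranked peak there, centred 12.5 bp from the centre of the region. Replicate 2 had its peak of rank 2 there, at 21.5 bp. The q values of the next members were 2.21e-26 and 4.72e-22.

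The following members showed how unevenly the ChIP libraries marked strong sites. The second member, from 1966867 to 1967375 (q = 2.21e-26), lay at rank 12 of replicate 1 and at rank 11061 of replicate 2, where its score was 0.129 against a highest score of 2.12. The third, from 13565091 to 13565651 (q = 4.72e-22), was high in both lists, at ranks 24 and 6. The fourth, from 5763773 to 5764327 (q = 2.73e-20), was at ranks 2593 and 2392, and the fifth, from 777298 to 777659 (q = 4.11e-20), at ranks 18 and 2385. The member from 9095536 to 9096011 (q = 2.89e-19) was at ranks 246 and 7, with the highest score of each list. Scores of the replicate lists have no stated scale and are limited at a highest value of 3.06 in replicate 1 and 2.12 in replicate 2, shared on chromosome V by 84 and 8 peaks. Ranks within these ties follow the authors' peak numbers.

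Further strong members also differed in their ranks. The region from 9163904 to 9164423 (q = 4.27e-16) had a modest replicate 1 score of 1.13 (rank 11585), while replicate 2 had it at rank 1258. The region from 10897169 to 10897597 (q = 1.27e-14) was high in both lists, at rank 9 and rank 228. The region from 10081634 to 10082050 (q = 1.37e-14) was at rank 851 and, in replicate 2, at rank 20552 of 25332 with a score of 0.0288. All 10 of the strongest members met a peak of both replicates, and 7 of the 10 had the highest replicate 1 score, against 3 with the highest replicate 2 score. Among the 20 strongest (q down to 1.01e-12), 20 met replicate 1 and 18 met replicate 2, and those without a replicate 2 peak were the regions from 10940054 to 10940980 (q = 5.37e-14) and from 5423203 to 5423524 (q = 1.01e-12).

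The median member was 291 bp wide, with quartiles of 205 and 404 bp, and the members covered 199.7 kb, or 0.954% of the chromosome. At least 500 bp was reached by 78 members (12.9%), where the share over all nuclear chromosomes was 16.0%. The other chromosomes together had 16.8%, so wide regions were less frequent on chromosome V (Fisher's exact test, adjusted p = 0.0462). The difference rested on the X chromosome, with 22.6%, and on chromosome I, with 30.1%. Chromosomes II, III and IV had 13.2%, 14.7% and 13.8%, and with chromosomes I and X left out the test did not pass (13.9%, Fisher's exact test, adjusted p = 0.605). Of the 3 widths tried it passed only at 500 bp. At 300 bp the shares were 47.6% and 49.98% (Fisher's exact test, adjusted p = 0.604), and at 1000 bp the direction turned, with 1.82% and 1.61% (adjusted p = 0.718).

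The widest members were not always the strongest. The widest spanned 1837 bp from 725962 to 727798 (q = 2.68e-14) and met 2 replicate 1 peaks and 3 replicate 2 peaks. The next, of 1770 bp from 14365702 to 14367471, had q = 1.07e-08, and the third, of 1741 bp from 5284009 to 5285749, had a q of only 0.000613 and met no replicate 1 peak. The others were 1716 bp from 6226962 to 6228677 (q = 3.44e-11) and 1457 bp from 4185997 to 4187453 (q = 2.00e-12). Over all 603 members, width and −log10 q had a Spearman's rho of 0.76, given as a description, since both come from the same peak calls. At the narrow end, 30 members were under 50 bp wide, down to 1 bp, the strongest of them had q = 0.00321, and 17 of the 30 met no replicate peak.

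**Figure D1:**
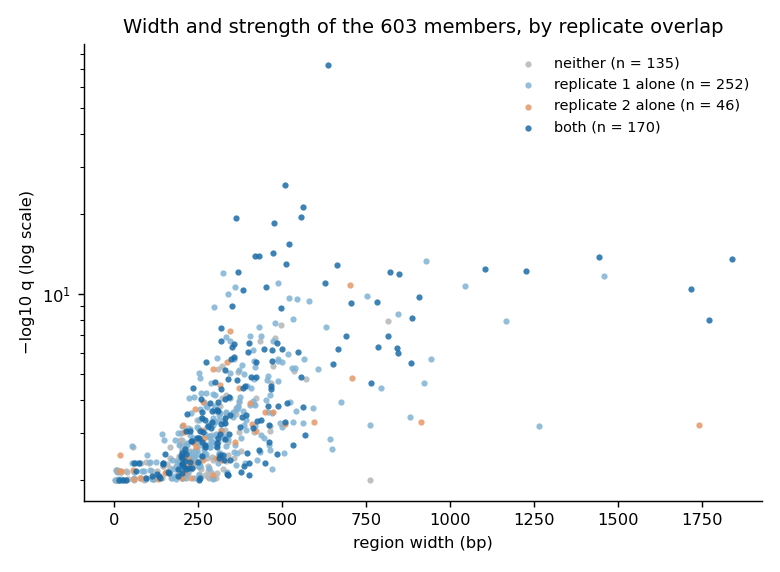
Width of each of the 603 members (bp) against −log10 of the authors' q value (log scale), with colours for the replicate lists in which a member met a peak. The single point at the top is the member with q = 1.44e-73, and members under 50 bp wide all lie near the bottom.

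How far each ChIP library marked the same sites was asked by overlap, with 1 shared bp required. Replicate 1 peaks met 422 of the 603 members (69.98%, exact 95% interval 66.2 to 73.6), where the share over all nuclear chromosomes was 73.7%. Replicate 2 peaks met 216 (35.8%, interval 32.0 to 39.8), with 34.5% over all chromosomes. Both replicates met 170 (28.2%, interval 24.6 to 32.0), with 27.3% over all chromosomes. An interval of the members' widths placed at every position of chromosome V would meet a replicate 1 peak at 13.8% of positions and a replicate 2 peak, which is 800 bp wide against 400 bp, at 21.5%. Replicate 1 alone met 252 members (41.8%), replicate 2 alone 46 (7.63%), and 135 (22.4%) met neither. Over all nuclear chromosomes these shares were 46.4%, 7.18% and 19.1%. Whether the combined list was called from the same reads is not given in the sources used here, so this overlap is not an independent replication.

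The overlap with replicate 1 was lower on chromosome V than elsewhere. It was 69.98% against 74.8% on the other nuclear chromosomes (Fisher's exact test, adjusted p = 0.0462, odds ratio 0.788). By chromosome the share was 68.2% on IV, 75.6% on III, 75.7% on X, 77.8% on II and 87.1% on I, so chromosome V was second lowest, and the interval of chromosome IV overlapped its own. Replicate 1 peaks also covered less of chromosomes V (7.84%) and IV (7.56%) than of the others (8.30% to 8.51%), and the part of this in the difference was not tested. With chromosome I left out the comparison did not pass (74.2% elsewhere, Fisher's exact test, adjusted p = 0.0927), nor with X left out (74.4%, adjusted p = 0.0799) or among regions from 200 bp to under 500 bp wide (73.0% against 77.4%, adjusted p = 0.140).

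Neither of the other overlaps passed the test between chromosome V and the rest. Replicate 2 peaks met 35.8% of members and 34.2% of regions elsewhere (Fisher's exact test, adjusted p = 0.604), with odds ratio 1.08. Both replicates met 28.2% and 27.1% (exact test, adjusted p = 0.605), with odds ratio 1.06. These tests, and those below, count each region as an independent observation, although 103 members lay within 1 kb of another.

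**Figure D2:**
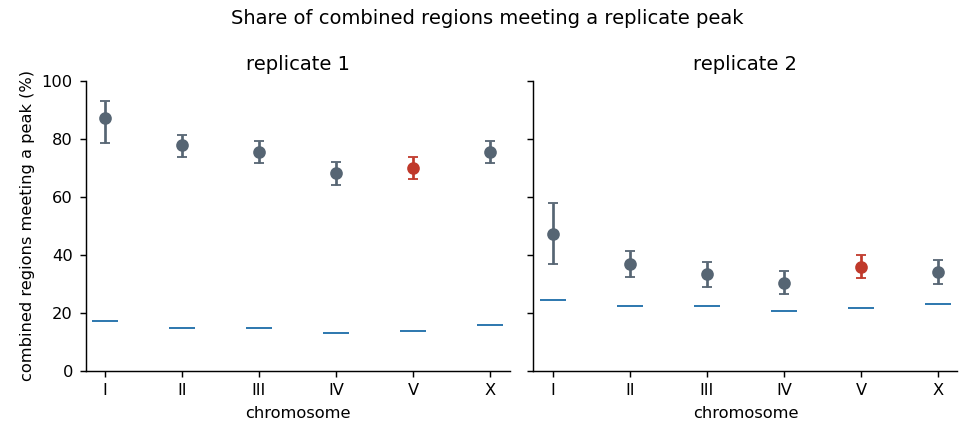
Share of combined regions (%) that meet a peak of replicate 1 (left) or replicate 2 (right), by chromosome, with exact 95% intervals and chromosome V in red. Blue dashes mark the share of positions at which intervals of the same widths meet a peak, which is 13.8% and 21.5% on chromosome V.

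Stronger members met the replicates more often. In order of q, the 150 strongest met replicate 1 in 86.0% of cases, the next 150 in 75.3%, the next 150 in 68.0% and the last 153 in 51.0%. For replicate 2 these shares were 50.7%, 38.0%, 28.7% and 26.1%. Of the 110 members with q under 1e-05, 59 (53.6%) met replicate 2, against 157 of 493 (31.8%) of the rest (Fisher's exact test, adjusted p = 0.000155 over 6 comparisons, odds ratio 2.48). For replicate 1 they were 97 of 110 (88.2%) and 325 of 493 (65.9%). The stronger members were also wider, with a median of 486.5 bp against 258 bp, and among members from 200 bp to under 500 bp wide the replicate 2 shares were 47.5% and 34.5% (Fisher's exact test, adjusted p = 0.157). The q values and the replicate peaks may rest on the same reads, so these tests cannot show independent support for the stronger members. Among the 1357 regions of lowest q, replicate 2 met 43.2% on chromosome V and 43.5% elsewhere, so the higher share was not particular to chromosome V.

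Where replicate peaks met members, those of replicate 1 lay closer to the centre. Taking the best-ranked peak of each, the replicate 1 centre was a median of 60.5 bp from the centre of the member (quartiles 24.6 and 122.9 bp, n = 422), and within 100 bp for 289 members (68.5%). The replicate 2 centre was a median of 240.5 bp away (quartiles 83.5 and 411.9 bp, n = 216), and within 100 bp for 59 members (27.3%). As a share of the largest distance at which the pair would still overlap, which allows for the different peak widths, the medians were 16.7% and 42.2%. Peaks placed evenly over that range would give 50%. Among the 100 strongest members the medians were 14.6% (n = 91) and 32.2% (n = 57). The median signed offsets were small, at -4.5 bp and -11.5 bp. On the other chromosomes the median distances were 62 bp and 236.5 bp. The best-ranked peak need not be the nearest. Of the 422 members, 66 met 2 or more replicate 1 peaks, and of the 216, 77 met 2 or more replicate 2 peaks. This choice can therefore lengthen the replicate 2 distances more often, and distances to the nearest peak were not measured.

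**Figure D3:**
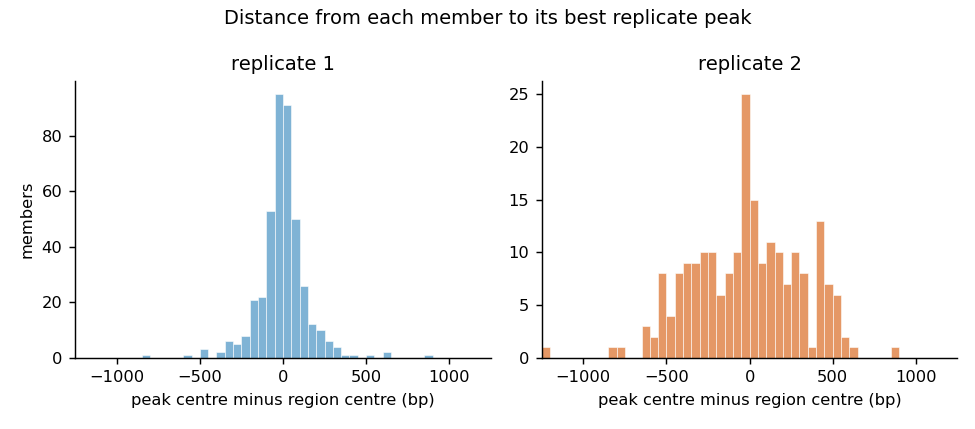
Distance in bp from the centre of a member to the centre of its best-ranked replicate 1 peak (left, n = 422) or replicate 2 peak (right, n = 216), in bins of 50 bp, with separate vertical scales. Replicate 1 distances pile up around 0, and replicate 2 distances have a small central spike on a broad base that reaches beyond 500 bp on each side.

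Of the members that met both replicates, a minority were high in both lists. The 170 such members had a median rank of 2917.5 in replicate 1 and 8430 in replicate 2, and the Spearman's rho between their scores was 0.03, as a description over members that share libraries. Ranks within 2714, the length of the combined list, were held by 83 of the 170 in replicate 1, by 41 in replicate 2 and by 25 in both. The replicate lists held 21114 and 25332 peaks, and the same counts for the other chromosomes are not given here. Within 1000 in both lists there were 11, and within 100 there were 2. The cut at 100 falls among tied highest scores of replicate 1, so the last count depends on peak number. The members at 9095536 (ranks 246 and 7) and 11616001 (ranks 220 and 27) also had the highest score of both lists. Both peak centres lay within 100 bp of the centre of the member in 33 cases.

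The 25 members with both ranks within 2714, a set formed after the ranks had been seen, had a median q of 2.13e-07, and 18 of them had q under 1e-05. Besides those given above they included the region from 14055034 to 14055416 (q = 3.98e-11), at ranks 363 and 211. The region from 6000285 to 6000728 (q = 6.40e-07) was at ranks 70 and 197, and the region from 2055970 to 2056326 (q = 1.50e-06) at ranks 326 and 440. The neighbours from 11801412 to 11801760 and from 11802480 to 11802797 (q = 4.92e-07 and 2.13e-07) were at replicate 1 ranks 209 and 464 and at replicate 2 ranks 438 and 1225. By mean rank over both replicates, the first members were those at 19212213, 13565091, 10897169, 11616001 and 9095536. The region from 11616001 to 11617225 (q = 6.21e-13) was 1225 bp wide, met 3 peaks of each replicate and was at ranks 220 and 27. Weak members also appeared among the 25, such as the region from 15566581 to 15567112 (q = 0.00191) at ranks 488 and 335.

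**Figure D4:**
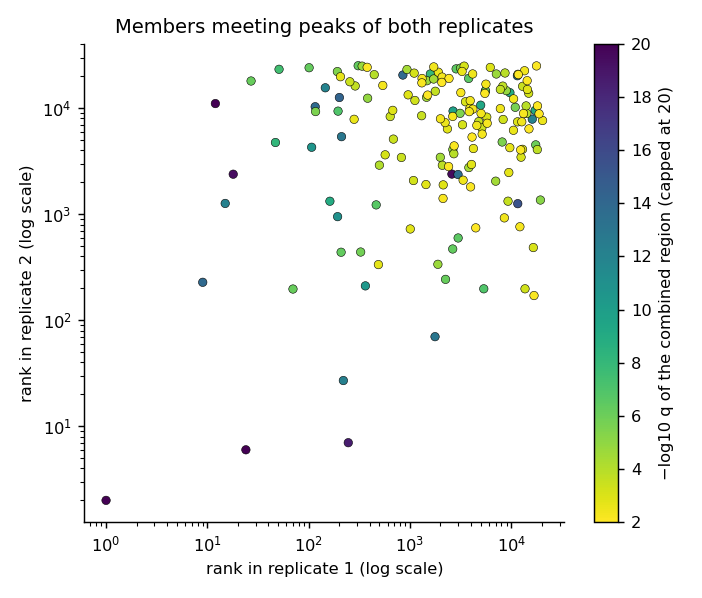
Rank in replicate 1 against rank in replicate 2 (log scales) of the 170 members that met peaks of both, with colour for −log10 q, capped at 20. The member at 19212213, at ranks 1 and 2, lies in the lower left corner, and most members lie beyond rank 1000 in replicate 2.

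Some strong members lacked a replicate peak. Without replicate 1, the strongest was the region from 1593657 to 1594356 (q = 1.61e-11), which met a replicate 2 peak of rank 22103 with its centre 492 bp away. The next were from 10717065 to 10717877 (q = 1.21e-08) and from 12548659 to 12549155 (q = 2.33e-08), which met neither replicate. Without replicate 2, the strongest after the pair already named were from 4185997 to 4187453, from 5822899 to 5823385 (q = 1.06e-11) and from 12542290 to 12543332 (q = 2.01e-11), at replicate 1 ranks 477, 208 and 2544. Of the 135 members that met neither, 9 had q under 1e-05 and the median q was 0.00432, against 0.000365 for those that met both.

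In the other direction, most replicate peaks on chromosome V had no combined region. Of 4219 replicate 1 peaks, 493 (11.7%) met a member, and of 5167 replicate 2 peaks, 298 (5.77%). Among the 100 strongest on the chromosome the numbers were 80 in replicate 1 and 20 in replicate 2. Of the peaks at the highest score, 75 of 84 met a member in replicate 1 and 4 of 8 in replicate 2. The 603 members are far fewer than the peaks of either list, which limits the shares that the full lists can reach. The same shares for the other chromosomes are not given here, so none is read as particular to chromosome V. The unmatched peaks at the highest score were tied, and the first 3 of each replicate by peak number are given. In replicate 1 they were from 20729069 to 20729468 (rank 223), from 3137458 to 3137857 (rank 361) and from 5700467 to 5700866 (rank 441, 707 bp from the nearest member). In replicate 2 they were from 18285332 to 18286131 (rank 32), from 12445083 to 12445882 (rank 45) and from 5436275 to 5437074 (rank 46). None of these 6 peaks met a peak of the other replicate.

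Members gathered in the middle of the chromosome. With the largest peak end in any list, 20920469, taken as the span, the middle 60% held 435 of 603 members (72.1%, exact 95% interval 68.4 to 75.7), where the share over all nuclear chromosomes was 68.1%. This was above the 66.9% of the other chromosomes (Fisher's exact test, adjusted p = 0.0462, odds ratio 1.28), with 58.1% on I, 65.7% on X, 66.7% on IV, 67.4% on III and 69.9% on II. The share for the middle 50% was 64.3% against 56.9% (Fisher's exact test, adjusted p = 0.00621, not corrected for the settings tried). The comparison did not pass with chromosome I left out (67.3% elsewhere, exact test, adjusted p = 0.0559), with X left out (67.4%, adjusted p = 0.0686), or for the middle 70% (77.8% against 75.4%, adjusted p = 0.471).

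The full replicate lists, which are longer than the combined list, were less central than the members. On chromosome V the middle 60% held 62.9% of replicate 1 peaks and 59.4% of replicate 2 peaks, and the share in replicate 1 was higher than in replicate 2 (Fisher's exact test, adjusted p = 0.00216), though not for the middle 70% (71.1% and 69.4%, adjusted p = 0.162). This test counts each peak as an independent observation and compares only replicate 1 with replicate 2, so it does not measure the spread between libraries. In a comparison added after the data had been seen, neither full list was more central on chromosome V than on the other chromosomes. Replicate 1 had 62.6% there (Fisher's exact test, adjusted p = 0.762 over 4 comparisons) and replicate 2 had 58.2% (adjusted p = 0.179). Among the 2714 strongest peaks, replicate 1 had 70.6% on chromosome V and 65.0% elsewhere (exact test, adjusted p = 0.0765), and replicate 2 had 61.8% and 58.1% (adjusted p = 0.179). At that list length the 70.6% of replicate 1 was near the 72.1% of the members, while the 61.8% of replicate 2 was lower. These shares were not tested against that of the members.

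The ends were not alike, a pattern seen in the positions and not tested. The left 20% held 103 members, or 24.6 per Mb, the right 20% held 65, or 15.5 per Mb, and the middle held 34.7 per Mb. Replicate 1 had 769 peaks in the left end and 798 in the right, and replicate 2 had 1032 and 1064. Thus the replicate lists had slightly more peaks in the right end, where the combined list had fewer. On the other chromosomes the left and right ends held 18.3% and 23.7% of regions on I, 8.74% and 21.3% on II, 15.7% and 16.9% on III, 19.1% and 14.2% on IV, and 14.2% and 20.2% on X, against 17.1% and 10.8% on V.

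No other difference between members of the middle 60% and of the ends passed the test. Replicate 1 peaks met 70.6% of middle members and 68.5% of end members (Fisher's exact test, adjusted p = 0.621 over 6 comparisons). Replicate 2 peaks met 34.0% and 40.5% (exact test, adjusted p = 0.233), while covering 15.9% of the middle and 16.4% of the ends. In the middle 19.5% had q under 1e-05 and in the ends 14.9% (Fisher's exact test, adjusted p = 0.237). At least 500 bp was reached by 14.5% and 8.93% (Fisher's exact test, adjusted p = 0.157). For the middle 50% the shares were 15.5% and 8.37%, which passed (Fisher's exact test, adjusted p = 0.0312, not corrected for the settings tried).

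**Figure D5:**
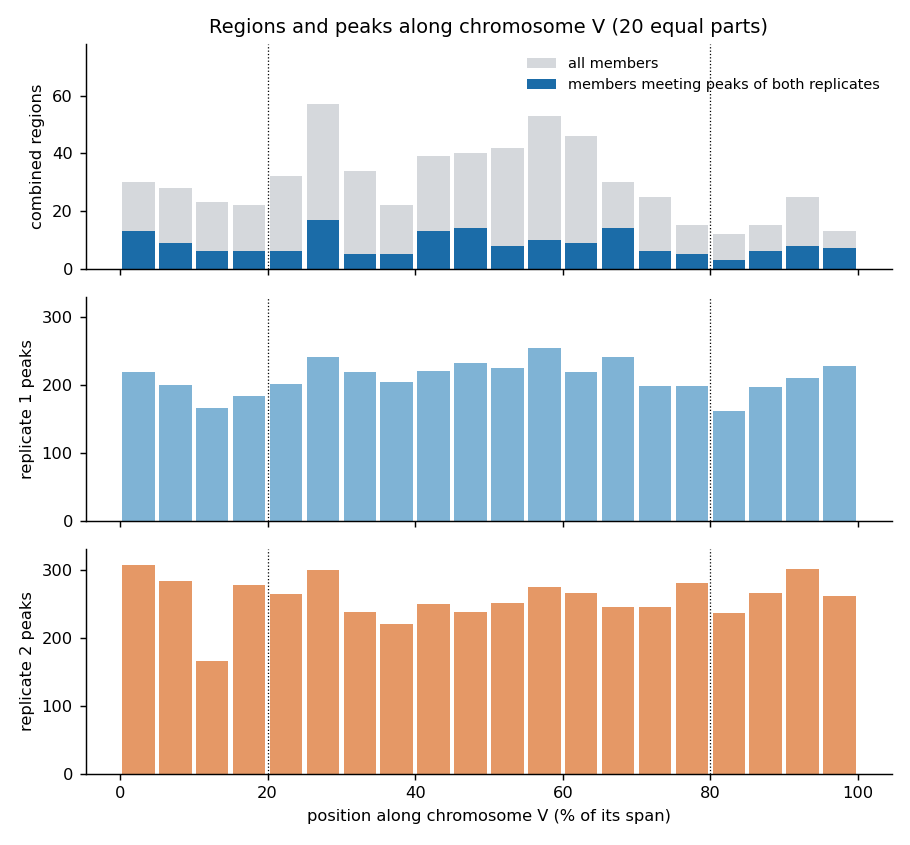
Number of members (top, with those that met both replicates in blue), of replicate 1 peaks (centre) and of replicate 2 peaks (bottom) in 20 equal parts of chromosome V, with dotted lines at 20% and 80% of the span. Members run from 12 to 57 a part and peak between 25% and 30% and between 55% and 60%, while replicate 1 peaks run from 162 to 254 and replicate 2 peaks from 165 to 306.

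Along the chromosome the richest parts held 57 members (25% to 30% of the span) and 53 (55% to 60%), with 22 between 35% and 40%, and the poorest held 12, between 80% and 85%. The part from 25% to 30% had 241 replicate 1 peaks and 49 of its 57 members met one, while the part from 55% to 60% had 254 and 34 of 53 met one. The strongest member lay in a part of 25 members, of which only 2 had q under 1e-05.

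Neighbouring members were often close. The gap between them had a median of 15029 bp and quartiles of 3478 and 46187 bp, 60 of the 602 gaps were at most 1000 bp and 181 at most 5000 bp. Joining within 1 kb left 543 sites from 603 members, and on the other chromosomes 1911 sites from 2111 regions, a similar loss. On chromosome V 103 members lay in 43 such clusters. The largest, singled out after it had been seen, had 7 members in 7759 bp from 723981 to 731739. It held the widest member and, at its ends, members from 723981 to 724766 (q = 4.43e-07) and from 731261 to 731739 (q = 1.54e-07), with weaker members (q from 0.000312 to 0.00691) between. Of its 7 members 4 met replicate 1 and the same number met replicate 2, with best ranks of 308 and 2370.

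The densest 100 kb held 17 members, from 6224408 to 6323267. They included a run of 4 neighbours from 6224408 to 6230971, with q of 1.55e-14 (1441 bp wide), 3.44e-11 (1716 bp), 3.96e-09 (844 bp) and 0.00966 (293 bp). Of the 17, 13 met replicate 1, 5 met replicate 2 and 4 had q under 1e-05. The member from 6276150 to 6276991 (q = 5.02e-07) had the best replicate 2 rank there, 470. The members from 6246371 and from 6247380 met the same replicate 2 peak of rank 4072. On the whole chromosome 13 members shared a replicate 2 peak with another member and 4 shared a replicate 1 peak.

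The longest stretch without a member ran 314383 bp, from 18029864 to 18344248, in the right end. The members at its edges were 5 bp wide (q = 0.00665) and 56 bp wide (q = 0.00218), and neither met a replicate peak. Replicate 1 had 45 peaks inside the stretch and replicate 2 had 57, among them the rank 32 peak at 18285332.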

How the data were processed

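The titles give 2 ChIP and 2 input libraries. Worms were cross-linked with 2% formaldehyde, per the labels' protocols. The authors deposited peak intervals on WormBase WS220, per the file headers. The source field of the replicate lists is SPP through the irreproducible discovery rate procedure, and the authors deposited a score of unstated scale with each peak. The combined list names PeakSeq, and the value deposited for each region is a q-value, all under 0.01. Comment lines record a liftover for 5 features, of which 0 are on chromosome V. Versions, thresholds, the use of input, the pooling of replicates and the depth in reads were not given in the sources at hand, so counting error of reads cannot be stated. Separate cultures for the replicates are not recorded in the labels, so differences between them may be technical.

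The q-values and scores are the authors' and were used to rank and describe peaks within their own list. Replicate peaks were ranked over the 6 nuclear chromosomes by score, and tied peaks by their peak number. Analyses ran in Python 3.11.15 with SciPy 1.17.1, pandas 2.3.3, NumPy 2.4.6 and matplotlib 3.10.9. Shares were compared with two-sided Fisher's exact tests, with Benjamini-Hochberg adjustment within 2 families of 6 comparisons and a threshold of 0.05, and their 95% intervals are exact Clopper-Pearson intervals for counting error alone. The overlap and test functions were tested on simulated lists. Named regions were the 20 of lowest q, the 5 widest and the 5 strongest lacking replicate 1, replicate 2 or both. Others were the 5 of best mean rank in both replicates, those of the densest 100 kb and those beside the longest gap. The 3 first-ranked unmatched peaks of each replicate were also named. Of these, the ones on which the text turns are printed. The members, measures and rules were chosen with earlier results of these data known. The gene table is of another build, so no gene was assigned and no sequence is printed.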

Additional observations from a re-analysis of the deposited data

How the results depend on the processing

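Of 62 alternative values, 38 kept their direction and their side of the threshold. Each alternative p value replaced the main one in its family of 6 before adjustment, so the number of settings tried was not corrected for. Differences are in percentage points, chromosome V minus the others unless stated. The overlap with replicate 1 no longer passed without chromosome I (-4.20), without X (-4.46), without both (-3.67), among the 1357 regions of lowest q (-4.40) or from 200 bp to under 500 bp wide (-4.41). The share at least 500 bp wide no longer passed without chromosome I (-3.27), X (-1.93) or both (-0.976), among the 1357 regions (-6.50) or at 300 bp (-2.38), and turned at 1000 bp (0.214). The middle share no longer passed without chromosome I (4.80), X (4.78) or both (4.20), or for the middle 70% (2.36). Results that had not passed turned direction without passing, for replicate 2 among the 1357 regions (-0.232) and with the strongest 2714 replicate peaks (-1.94), for both replicates in the same settings (-1.35 and -0.875), and for q under 1e-05 with regions within 1 kb merged (-0.0327). For the overlap with both replicates, leaving out 1 replicate gives the test of the other replicate alone, which is reported above. The values were 1.67 without replicate 1 and, in the other direction, -4.77 without replicate 2. Both are counted among the 62 but add no further result. Within chromosome V, middle minus ends at 500 bp passed for the middle 50% (7.09). Replicate 1 minus replicate 2 no longer passed for the middle 70% (1.68), and strong minus weak members did not from 200 bp to under 500 bp wide (13.0). The cause of these changes was not tested, and settings that drop regions also leave fewer to compare. Settings without X, or of middling width, were chosen after seeing the data. No paired analysis was possible because the input libraries have no list of their own here. Unknown read depth limits what a missing replicate peak shows.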
